A study of Mus musculus with 6 samples.

Results

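The mannose and galactose lectins *Mrc1*, *Clec10a* and *Mgl2* were followed together with *Chil3*, *Retnla*, *Arg1* and *Il4ra*, 4 genes known, like them, from the alternative activation of macrophages. These 7 genes were picked by symbol from the 22248 genes that the deposited FPKM matrix lists, and they were chosen with the difference between the genotypes already known. The contrast between the genotypes is therefore a description for them, and no test of it is given. Only 3 of the 7 genes encode receptors for mannose or galactose residues, and the genes are therefore described by role.

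RNA was measured by RNAseq in resting macrophages (BMDMs) that had been differentiated in culture over 7 days from mouse bone marrow under the growth factor M-CSF. The study asks what the transcriptional regulator CITED2 does in macrophages and in diet-induced obesity, and the libraries described here are its unstimulated BMDMs. In adipose tissue macrophages of mice on a high-fat diet, it reported lower *Mrc1*, *Arg1*, *Chil3l3* and *Retnla* with CITED2 deficiency, by RT-qPCR. Those cells and that diet are not part of the data described here. Controls were 3 libraries of the genotype *Lyz2*cre, and the CITED2-deficient group was 3 libraries of the genotype *Cited2*fl/fl:*Lyz2*cre, all on C57BL/6. No cytokine or bacterial product besides M-CSF was added to either group. Both groups carry Cre recombinase at *Lyz2*, a locus active in macrophages and granulocytes, and only the second carries floxed *Cited2*. The labels give postnatal week 10 for all 6 samples, while the methods of the study name 8-week-old mice. The labels do not say whether the libraries of a group came from separate mice, so the errors given here cover the spread between libraries, which may be technical.

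Macrophages take up sugar-bearing glycoproteins and microbes through C-type lectins, receptors that bind sugars in the presence of calcium. IL-4 and IL-13 act through IL-4 receptor alpha and the transcription factor STAT6, and in mouse macrophages they raise the lectins, the secreted proteins Ym1 and RELM-alpha, and arginase 1, a pattern called alternative activation. Some of these genes, the mannose receptor among them, are also expressed without IL-4 in macrophages grown with M-CSF.

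*Clec10a* and *Mgl2* are near-copies of each other, which matters for every value of *Mgl2*. They lie 18.6 kb apart on chromosome 11 of mm10 in the same orientation, *Mgl2* at chr11:70130329-70137550 and *Clec10a* at chr11:70156197-70170834. In the coding sequences of GENCODE M21, 827 of 888 aligned bases (93.1%) are identical. The sequences of the closest and the least alike coding stretch of 90 bases are shown because they set where a sequenced fragment can tell the genes apart. In the first, coding bases 279 to 368 of *Clec10a* and 327 to 416 of *Mgl2*, all 90 bases agree, so only 1 line is needed. In the second, bases 674 to 763 of *Clec10a* and 722 to 811 of *Mgl2*, 82 of 90 bases agree and capitals mark the bases that differ.
Clec10a and Mgl2, closest: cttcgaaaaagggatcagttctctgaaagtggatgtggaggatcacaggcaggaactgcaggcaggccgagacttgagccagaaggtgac
Clec10a, least alike: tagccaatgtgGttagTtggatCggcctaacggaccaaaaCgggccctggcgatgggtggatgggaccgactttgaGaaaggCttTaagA
Mgl2, least alike: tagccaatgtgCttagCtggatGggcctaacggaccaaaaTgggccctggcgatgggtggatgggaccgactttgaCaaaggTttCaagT

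Of the stretches of 50 bases in the longest coding transcript, 10.6% of those of *Clec10a* also occur in *Mgl2*, and 15.26% of those of *Mgl2* occur in *Clec10a*. *Chil3* has a similar partner in *Chil4*, whose level was not analysed here. Their coding sequences share 1141 of 1191 aligned bases (95.8%), and 18.46% of the 50-base stretches of *Chil3* occur in *Chil4*, or 29.4% in *Chil4* or *Gm6522*. The closest stretch, coding bases 362 to 451 of both genes, is shown since a fragment from it could belong to either gene.
Chil3 and Chil4, closest: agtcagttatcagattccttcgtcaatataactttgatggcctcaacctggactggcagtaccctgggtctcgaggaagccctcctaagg

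No 50-base stretch of *Mrc1*, *Retnla*, *Arg1* or *Il4ra* occurs in the transcripts of another gene. The sources used here do not say how the authors' counting shared fragments between such copies, so the levels of *Mgl2* and *Chil3* are less certain than those of the other genes.

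Depth was 17289286 to 18952078 fragments in the control libraries and 22583995 to 26100408 in the CITED2-deficient libraries, as recovered from the FPKM. FPKM are fragments per kilobase of transcript, scaled to library size. Genes that reached a mean of 1 FPKM over the 6 libraries were tested with limma on log2(FPKM + 1), and log2 differences are CITED2-deficient minus control on that scale, which understates the change of low genes. Of 11687 genes tested, 5994 passed an adjusted p of 0.05 (51.3%), 1950 of them higher in CITED2-deficient BMDMs (16.7% of genes tested) and 4044 lower (34.6%). Higher genes made up 32.5% of the calls with the FPKM as deposited and 50.5% after median-ratio scaling between libraries. The median log2 difference of all tested genes was -0.10. *Cited2* (chr10:17723218-17725674) stood at 71.7, 79.3 and 75.5 FPKM in the control libraries and at 9.27, 7.22 and 7.53 FPKM in the CITED2-deficient libraries (limma adjusted p = 6.57e-09). *Lyz2*, which carries Cre in both groups, stood at 31.3 ± 1.03 FPKM in control and 9.75 ± 0.33 FPKM in CITED2-deficient BMDMs (SD, n = 3 libraries each, limma adjusted p = 2.33e-08).

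Of the 7 genes, 5 reached the level that was tested. All 5 passed the threshold on the lower side, where 34.6% of all tested genes lay, but they were chosen on this contrast and nothing is read from the count. Of the 7 genes, 5 were lower in CITED2-deficient BMDMs with no overlap between the libraries of the groups, and of the 5 tested genes 4 were, where 40.9% of all tested genes were. The log2 differences of the 5 tested genes ran from -2.90 for *Clec10a* to -0.17 for *Chil3*. *Arg1* and *Retnla* fell below the filter, and *Mgl2* passed it only through its control level.

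**Figure D1:**
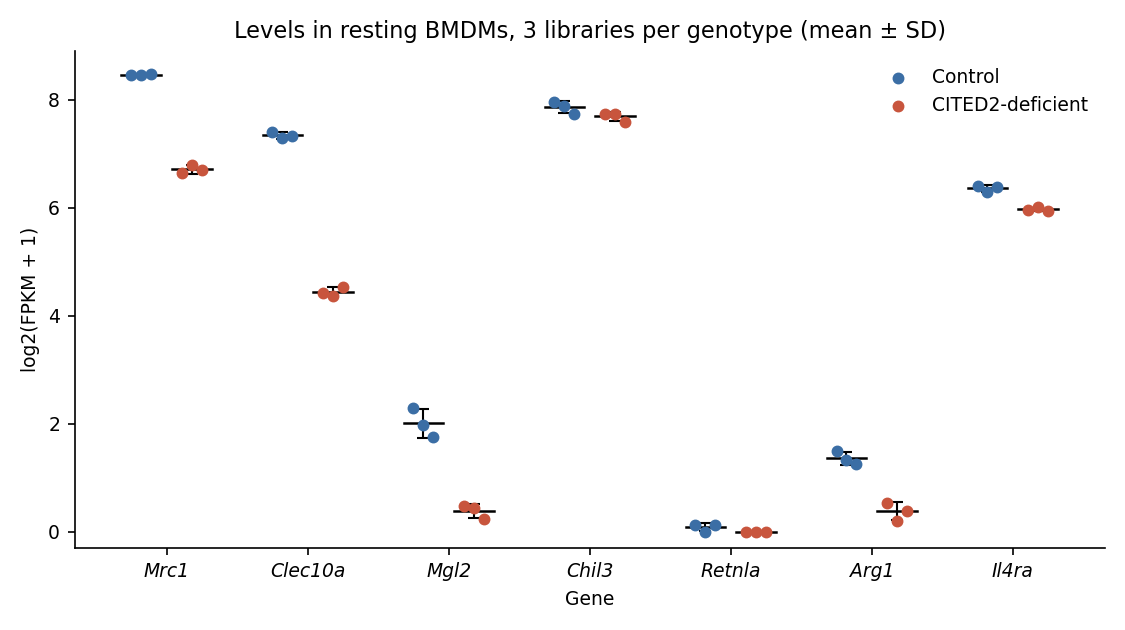
Level of each gene in log2(FPKM + 1) in every library, with blue points for the 3 control and red points for the 3 CITED2-deficient libraries and black bars for the mean ± SD. Mrc1, Clec10a, Mgl2, Arg1 and Il4ra show no overlap between the groups, Chil3 overlaps, and Retnla lies at or near 0 in all 6 libraries.

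*Mrc1* encodes the mannose receptor CD206, an endocytic lectin for mannose, fucose and N-acetylglucosamine (chr2:14229392-14332057, plus strand, 30 exons). Its level was 352, 350 and 358 FPKM in the control libraries and 98.9, 110 and 103 FPKM in the CITED2-deficient libraries. All 3 CITED2-deficient libraries lay far below the lowest control library, and neither group spread by more than 5.44% (coefficient of variation). The mean fell from 353 ± 4.09 to 104 ± 5.66 FPKM (SD, n = 3 each), a ratio of 3.40 between control and CITED2-deficient means and of 3.18 between the lowest control and the highest CITED2-deficient library. The log2 difference was -1.76 (SE 0.040), and it ranked 38 among all tested genes counted from the largest fall. In controls *Mrc1* stood above 98.8% of the listed genes, and in CITED2-deficient BMDMs above 95.2%. Less RNA per cell and fewer cells that express a gene cannot be told apart in these bulk samples.

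*Clec10a* encodes macrophage galactose-type lectin 1 (MGL1, CD301a), which binds galactose and N-acetylgalactosamine. It had 168, 156 and 159 FPKM in the control libraries and 20.6, 19.6 and 22.1 FPKM in the CITED2-deficient libraries. The groups were separated by a wide gap, from 22.1 to 156 FPKM. The mean fell from 161 ± 6.62 to 20.8 ± 1.27 FPKM (SD, n = 3 each), to 12.9% of the control mean, a ratio of 7.77. The log2 difference was -2.90 (SE 0.051), behind which stand 7864 fragments in controls and 1363 in CITED2-deficient BMDMs. Its place among the listed genes moved from the 96.9th to the 78.7th percentile.

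*Mgl2* encodes MGL2 (CD301b), the second mouse galactose-type lectin, which prefers N-acetylgalactosamine. It was low in all libraries, at 3.88, 2.93 and 2.39 FPKM in controls and at 0.392, 0.361 and 0.174 FPKM in CITED2-deficient BMDMs. In fragments these were 81, 56 and 50 against 11, 9 and 5, so the groups did not overlap but the counting error was large. The control mean was 9.93 times the CITED2-deficient mean, with a range of 6.09 to 22.4 between the nearest and the farthest libraries. In fragments per 1000000, *Mgl2* had 3.39 (95% exact Poisson interval 2.92 to 3.91) in controls and 0.337 (0.218 to 0.498) in CITED2-deficient BMDMs, intervals that cover counting error only. The log2 difference of -1.62 (SE 0.17) is reduced by the added 1 FPKM.

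The FPKM of *Mgl2* was 0.0150 to 0.0230 times that of *Clec10a* in control libraries and 0.00785 to 0.0191 times in CITED2-deficient libraries. These ranges overlapped, so the near-copies fell by shares of their level that the libraries do not separate. The part of shared fragments in the level of *Mgl2* was not tested. Within the lectins the balance moved, since the FPKM of *Clec10a* was 0.445 to 0.478 times that of *Mrc1* in controls and 0.178 to 0.215 times in CITED2-deficient libraries.

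**Figure D2:**
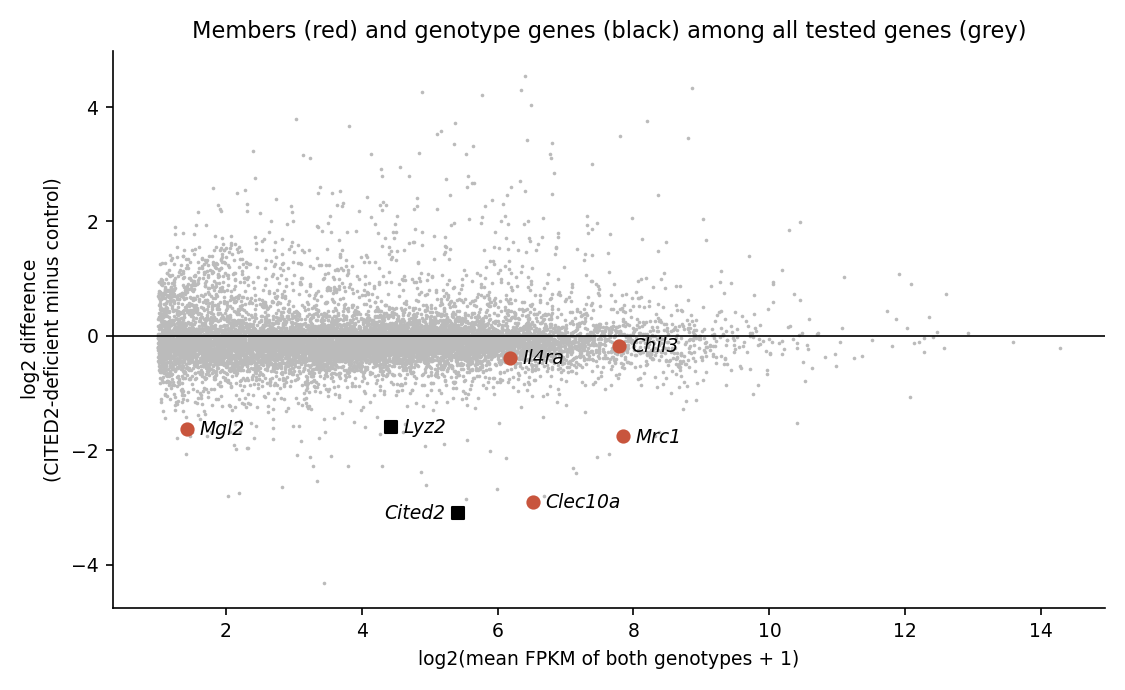
Log2 difference (CITED2-deficient minus control) against log2 of the mean FPKM of both genotypes plus 1 for all 11687 tested genes (grey), with the 5 tested genes described here in red and Cited2 and Lyz2 as black squares. Clec10a and Mrc1 lie at the lower edge of the cloud for their level, at -2.90 and -1.76, while Il4ra (-0.39) and Chil3 (-0.17) lie inside it.

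*Chil3* encodes Ym1, a secreted chitinase-like lectin that binds sugars without cleaving chitin (chr3:106147554-106167564, minus strand). It had 248, 237 and 214 FPKM in the control libraries and 214, 214 and 192 FPKM in the CITED2-deficient libraries. The lowest control library and the highest CITED2-deficient library had nearly the same value, so the groups overlapped. The means were 233 ± 17.6 and 207 ± 12.6 FPKM (SD, n = 3 each), a log2 difference of -0.17 (SE 0.060) beside the median of -0.10 over all tested genes. With median-ratio scaling the log2 difference of *Chil3* was -0.08, and the gene no longer passed the threshold. It also did not pass without control replicate 1 (log2 difference -0.12), without control replicate 2 (-0.16) or without CITED2-deficient replicate 3 (-0.12).

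*Retnla* encodes the secreted protein RELM-alpha (chr16:48842551-48844461, plus strand) and was at the limit of detection. It had 0.088, 0 and 0.088 FPKM in the control libraries, which is 1, 0 and 1 fragment, and was at 0 in all 3 CITED2-deficient libraries. In controls this is 0.0363 fragments per 1000000 (95% exact Poisson interval 0.00439 to 0.131), while 0 fragments in CITED2-deficient BMDMs put the upper end of the same interval at 0.0498 and a limit of 3 fragments at 0.0405 fragments per 1000000. No difference was detectable at this depth. The next gene along the chromosome, *Retnlg*, which encodes a related resistin-like protein of myeloid cells, is described with the relatives.

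*Arg1* encodes arginase 1, which splits arginine into ornithine and urea (chr10:24915221-24927484, minus strand). It stood at 1.82, 1.52 and 1.39 FPKM in the control libraries and at 0.450, 0.152 and 0.307 FPKM in the CITED2-deficient libraries. The fragments behind these values were 30, 23 and 23 against 10, 3 and 7. Every control library was above every CITED2-deficient library, and the ratio of the means was 5.20, with 3.08 between the nearest libraries. In fragments per 1000000 the level was 1.38 (95% exact Poisson interval 1.09 to 1.73) in controls and 0.270 (0.165 to 0.417) in CITED2-deficient BMDMs. Its mean over all 6 libraries of 0.939 FPKM is just under the level tested, and its log2 difference was -0.99 (SE 0.12).

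*Il4ra* encodes IL-4 receptor alpha, the chain shared by the receptors for IL-4 and IL-13 (chr7:125552120-125579474, plus strand, 11 exons). It had 83.8, 77.4 and 82.7 FPKM in the control libraries and 61.4, 63.4 and 60.5 FPKM in the CITED2-deficient libraries. The groups did not overlap, although the gap from 63.4 to 77.4 FPKM was small beside that of the lectins. The means were 81.3 ± 3.45 and 61.8 ± 1.47 FPKM (SD, n = 3 each), a ratio of 1.32 and a log2 difference of -0.39 (SE 0.040). After median-ratio scaling the log2 difference was -0.295. A gene annotated on the opposite strand, *Gm44876*, overlaps *Il4ra*, and the libraries were stranded, but the sources used here do not give the strand setting of the counting.

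In control BMDMs the order of the levels was *Mrc1*, *Chil3*, *Clec10a*, *Il4ra*, *Mgl2*, *Arg1* and *Retnla*, and no neighbours in this order overlapped between libraries. In CITED2-deficient BMDMs it was *Chil3*, *Mrc1*, *Il4ra*, *Clec10a*, *Mgl2*, *Arg1* and *Retnla*, and only *Mgl2* and *Arg1* overlapped. *Mrc1* thus stood at 1.42 to 1.67 times the FPKM of *Chil3* in controls and at 0.463 to 0.535 times in CITED2-deficient libraries, and *Clec10a* at 1.93 to 2.01 times that of *Il4ra* in controls and 0.309 to 0.365 times in CITED2-deficient libraries. Both orders were the same when fragments were divided by the length of the longest coding transcript in place of the mean transcript length behind the FPKM.

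The genes nearest in pattern were sought among all tested genes, by the root mean square difference of the centred log2(FPKM + 1) over the 6 libraries. For *Mrc1* they were *Dab2*, an endocytic adaptor (0.041, with means of 492 and 145 FPKM in control and CITED2-deficient BMDMs), and *Mex3b*, an RNA-binding protein (0.047). For *Clec10a* they were *Trim5* (0.068, with means of 6.16 and 0.0258 FPKM) and *Man2a2*, a mannosidase of N-glycan processing (0.089, with means of 80.3 and 10.3 FPKM). *Mgl2* came closest to *Ptgs1*, cyclooxygenase 1 (0.145), and *Ctsg*, the granule protease cathepsin G (0.148). *Il4ra* came closest to *Tacc1* (0.011) and *Zfp652* (0.018), and *Chil3* to *Arhgap26* (0.013) and *Klhl26* (0.019). *Arg1* came closest to *Cib2* (0.053) and *Adssl1* (0.056). For *Retnla*, which hardly leaves 0, *Gspt1* (0.014) and *Kat5* (0.016) were nearest, both genes that hardly differ between libraries. With 2 groups that do not overlap, any gene with a similar difference comes out close by this measure. The added 1 FPKM also lets genes with unlike ratios of their means come out close, such as *Trim5* and *Clec10a*.

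Genes of the IL-4 pathway went both ways. Of 18 listed genes of IL-4 and IL-13 receptor signalling 15 were tested and 12 passed the threshold (51.3% of all tested genes did), 7 higher and 5 lower in CITED2-deficient BMDMs, with a median log2 difference of 0.11 beside -0.10 over all genes. After median-ratio scaling 9 were higher and 3 lower. *Il2rg*, the common gamma chain that pairs with *Il4ra* in the type 1 receptor, had 40.7, 43.3 and 42.3 FPKM in the control libraries and 69.5, 78.2 and 70.3 FPKM in the CITED2-deficient libraries (log2 difference 0.77, SE 0.051, limma adjusted p = 2.48e-06). *Il13ra1*, the partner chain of the type 2 receptor, was low and rose from 3.44 ± 0.17 to 5.43 ± 0.12 FPKM (SD, n = 3 each, limma adjusted p = 0.000571). Both partner chains of *Il4ra* were thus higher where *Il4ra* itself was lower, with no overlap of the groups for any of the 3 genes.

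*Socs1*, an inhibitor of cytokine receptor signalling, rose by 0.74 on the log2 scale from a low level (limma adjusted p = 0.00282). *Il4* itself had 15.1, 14.3 and 15.7 FPKM in the control and 10.2, 7.74 and 8.12 FPKM in the CITED2-deficient libraries, and fell by 0.73 on the log2 scale (limma adjusted p = 0.000202). *Il13* had at most 1 fragment in any library.

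Among 16 transcription factors linked with alternative activation, all tested, 7 were higher and 4 lower, with a median log2 difference of -0.09. Of all tested genes, 16.7% passed the threshold on the higher side and 34.6% on the lower side. *Irf4*, known as a factor downstream of IL-4, fell from 5.94 ± 0.29 to 2.08 ± 0.27 FPKM (log2 difference -1.17, SE 0.099, limma adjusted p = 1.3e-05). *Maf* went from 162 to 93.8 FPKM and *Rxra*, the partner of PPAR and other nuclear receptors, from 61.5 to 35.3 FPKM, with log2 differences of -0.79 and -0.78. *Bhlhe40* rose by 0.59 (SE 0.054, limma adjusted p = 2.19e-05).

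Of 28 other genes known to be induced by IL-4 in macrophages, 23 were listed and 15 tested. Of these 6 were higher and 6 lower, with a median log2 difference of 0.10, and 7 were higher and 5 lower after median-ratio scaling. The shares over all tested genes were 16.7% higher and 34.6% lower with the FPKM as deposited. *F13a1*, coagulation factor XIII A, had 186, 174 and 176 FPKM in the control and 24.8, 25.6 and 23.8 FPKM in the CITED2-deficient libraries, a log2 difference of -2.80 (SE 0.042, limma adjusted p = 4.59e-10) that is close in size to that of *Clec10a*. In the other direction, *Fn1* (fibronectin) rose by 1.97 on the log2 scale, *Flt1* (VEGF receptor 1) by 1.78 and *Il1rn* (the IL-1 receptor antagonist) by 1.34, with limma adjusted p of 1.18e-06, 2.17e-05 and 4.8e-06. *Fn1* was highest in CITED2-deficient replicate 1 (79.3 FPKM), the library that also held the highest sum of the fibroblast or stromal markers described below. The chemokine genes *Ccl17*, *Ccl22* and *Ccl24* were below the filter, each under 1 FPKM in every library.

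**Figure D3:**
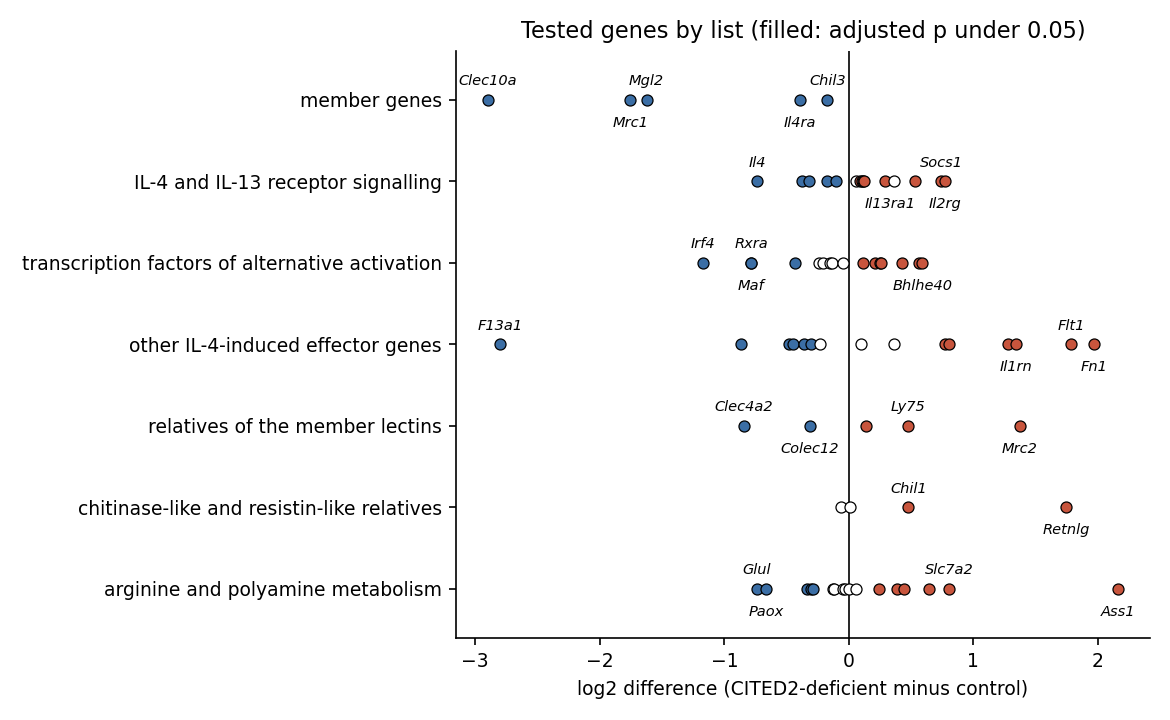
Log2 difference (CITED2-deficient minus control) of every tested gene in each list, with 1 row per list, filled points for genes past an adjusted p of 0.05 (blue lower, red higher) and open points for the others. The top row holds the 5 tested genes described here, all lower, while the lists below it hold genes on both sides of 0, except that the chitinase-like and resistin-like relatives have calls on the higher side only.

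Relatives of the lectins went both ways. Of 22 listed relatives 11 were in the matrix and 5 were tested, of which 3 were higher and 2 lower. Over all tested genes 16.7% were called higher and 34.6% lower. *Mrc2* encodes Endo180, a collagen receptor of the mannose receptor family, and had 2.65, 2.61 and 2.76 FPKM in the control and 10.5, 6.94 and 8.46 FPKM in the CITED2-deficient libraries (log2 difference 1.37, SE 0.13, limma adjusted p = 2.5e-05). Like *Fn1*, it was highest in CITED2-deficient replicate 1, and the part of stromal cells in its level was not tested. *Ly75* encodes the family member DEC-205 and was higher by 0.48 on the log2 scale (limma adjusted p = 0.0281), a call that was lost without CITED2-deficient replicate 2, control replicate 2 or control replicate 3. *Clec4a2* (DCIR) went the way of *Mrc1* and *Clec10a*, with 112, 110 and 113 FPKM in the control against 66.2, 62.0 and 57.5 FPKM in the CITED2-deficient libraries (log2 difference -0.84, SE 0.049, limma adjusted p = 1.09e-06). *Colec12*, a scavenger receptor collectin, was lower by a log2 difference of -0.31 (limma adjusted p = 0.00279). *Lgals3*, the other relative called higher, had a log2 difference of 0.14, a call lost with quantile normalization (0.017, limma adjusted p = 0.813). Without control replicate 3, 3 of the relatives passed the threshold. Below the filter, *Asgr2* went from 1.40 ± 0.23 to 0.439 ± 0.31 FPKM and *Pla2r1* from 0.341 ± 0.23 to 1.17 ± 0.20 FPKM. The groups did not overlap for either gene.

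Of the chitinase-like and resistin-like relatives, 4 of the 6 in the matrix were tested, 2 were higher and none was lower. Beside this, 51.3% of all tested genes passed the threshold, 16.7% higher and 34.6% lower. *Retnlg*, the neighbour of *Retnla*, had 0.446, 0.878 and 0.623 FPKM in the control and 4.58, 4.26 and 4.65 FPKM in the CITED2-deficient libraries (log2 difference 1.74, SE 0.13, limma adjusted p = 5.43e-06). *Chil1*, which encodes the secreted protein BRP-39, rose by 0.48 (SE 0.11, limma adjusted p = 0.00483). Both genes were under 5 FPKM in every library.

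Around *Arg1*, the list of arginine and polyamine genes had 17 tested of 20, with 6 higher, 5 lower and a median log2 difference of -0.03. The list thus had 64.7% of its tested genes past the threshold, where 51.3% of all tested genes were. *Ass1*, which rebuilds arginine from citrulline, had 1.92, 1.68 and 1.98 FPKM in the control and 11.7, 12.9 and 10.9 FPKM in the CITED2-deficient libraries (log2 difference 2.16, SE 0.091, limma adjusted p = 1.22e-07). *Slc7a2*, an arginine transporter, rose by 0.80 (SE 0.11, limma adjusted p = 0.000291). *Glul*, glutamine synthetase, went from 447 to 267 FPKM, and *Paox*, polyamine oxidase, from 13.2 to 8.02 FPKM, with log2 differences of -0.74 and -0.67 (limma adjusted p = 6.45e-08 and 4.3e-05). *Nos2* and *Arg2*, which also consume arginine, were below the filter. *Nos2* had 0.192, 0.0420 and 0 FPKM in the control and 0.257, 0.434 and 0.542 FPKM in the CITED2-deficient libraries. The groups of *Arg2* overlapped.

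Some of the named genes overlap another annotated gene, so a part of their fragments could belong to it. On the opposite strand this holds for *Maf*, *Bhlhe40*, *F13a1*, *Fn1*, *Ly75*, *Colec12*, *Slc7a2*, *Glul* and *Paox*, and on the same strand for *Il2rg*, *Clec4a2*, *Colec12*, *Glul* and *Mrc1*, which contains the microRNA gene *Mir511*.

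The genes on either side of the 7 genes were compared as a view of their surroundings. Only tested genes count as neighbours here, at distances from 1.5 to 3433.5 kb, and untested genes can lie between. Of 36 tested neighbours, up to 3 on each side, 23 passed the threshold, 11 higher and 12 lower, where 51.3% of all tested genes passed it, 16.7% higher and 34.6% lower. Next to *Mrc1*, *Stam* and *Nsun6* had log2 differences of 0.07 and -0.03 (limma adjusted p = 0.337 and 0.806), and the sign of *Nsun6* turned with median-ratio scaling. *Stam* passed the threshold with that scaling (0.16, limma adjusted p = 0.0493). Besides each other, *Clec10a* and *Mgl2* are flanked by *Slc16a13* (log2 difference -0.43, SE 0.072) and *Dlg4* (-0.45, SE 0.11), both lower (limma adjusted p = 0.00101 and 0.00669) but by far less than the lectins. Next to *Il4ra*, *Nsmce1* was lower (-0.44, SE 0.067) and *Il21r*, a receptor that also uses the common gamma chain, was higher by 0.17 (limma adjusted p = 0.044), a call that 8 of the alternatives lost. *Chil3* lies between *Wdr77* (-0.48, SE 0.12) and *Dennd2d* (-0.13, SE 0.093), and *Retnla* between *Phldb2* (1.25, SE 0.17, 2889 kb away) and *Retnlg* (28.2 kb away). *Arg1* lies between *Akap7* (-0.53, SE 0.096) and the short microRNA gene *Mir6905*, which lies within *Med23* on the same strand. *Mir6905* had 0.756, 0.826 and 5.28 FPKM in the control libraries and was at 0 in all CITED2-deficient libraries, and its call was lost without a filter and without CITED2-deficient replicate 3. *Med23* itself ends 1.5 kb from *Arg1* and was lower by a log2 difference of -0.17 (SE 0.047, limma adjusted p = 0.0137). That call was lost with median-ratio scaling (-0.08, limma adjusted p = 0.217).

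*Arg1* is on the same chromosome as *Cited2*, 7.19 Mb away, and is the only one of the 7 genes for which this holds. Of 58 tested genes within 10 Mb of *Cited2*, 36 (62.1%) passed the threshold, and within 2 Mb and 50 Mb the shares were 66.7% of 6 genes and 53.2% of 201 genes, beside 51.3% of all tested genes. Whether DNA that came along with the floxed allele touches *Arg1* was not tested.

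**Figure D4:**
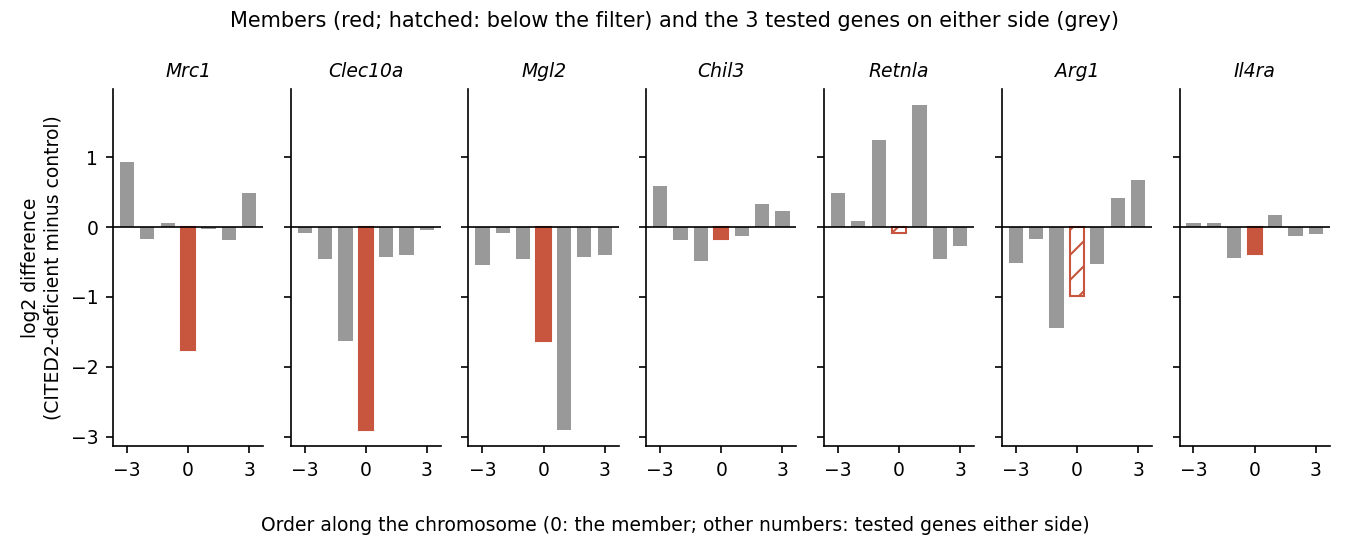
Log2 difference (CITED2-deficient minus control) of each gene (red, hatched where its mean FPKM was below 1) and of the 3 tested genes on either side in their order along the chromosome (grey). Clec10a and Mgl2 are each other's neighbour, and the other bars beside them lie between -0.55 and -0.04. The bars beside Mrc1 reach from -0.19 to 0.94.

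RefSeq promoters (GRCm38.p6, from 250 bases before to 50 bases after the start) were given for 5 of the 7 genes, all but *Clec10a* and *Arg1*. They are shown because *Mrc1* and *Mgl2* fell together while *Retnla*, a gene known as a STAT6 target, had almost no fragments. Motifs were searched on both strands. They were TTCNNNNGAA with the spacing that STAT6 prefers and TTCNNNGAA with that of other STAT factors. The myeloid factor PU.1 was searched as GAGGAAG and the factors of the C/EBP family as TTNNGCAA. The last motifs were the TATA box as TATAAA and the interferon response element as GAAANNGAAA. Capitals in the stretches from base -250 to -101 mark matches, and no matches to different motifs overlap there.
Mrc1, chr2:14229164-14229313, plus strand: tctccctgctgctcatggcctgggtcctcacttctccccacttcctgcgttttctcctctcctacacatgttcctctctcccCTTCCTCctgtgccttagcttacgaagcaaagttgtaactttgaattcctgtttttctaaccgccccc
Mgl2, chr11:70130107-70130256, plus strand: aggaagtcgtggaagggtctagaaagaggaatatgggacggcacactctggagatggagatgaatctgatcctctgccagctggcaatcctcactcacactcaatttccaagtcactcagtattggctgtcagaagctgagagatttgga
Retnla, chr16:48842359-48842508, plus strand: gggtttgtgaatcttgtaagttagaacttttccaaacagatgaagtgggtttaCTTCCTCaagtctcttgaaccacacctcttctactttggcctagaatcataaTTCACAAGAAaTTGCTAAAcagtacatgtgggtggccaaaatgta

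The *Retnla* window holds the STAT6 motif from base -145, the C/EBP motif from base -134 and the PU.1 motif from base -197, and a TATA box from base -30. Among 27025 promoters of this length, 6.99% hold the STAT6 motif, 10.8% the C/EBP motif, 13.5% the PU.1 motif and 14.2% the TATA box, while 3.49% hold the interferon response element, which was found in none of the 5 windows. The *Mrc1* window has the PU.1 motif from bases -168 and -36 and none of the others. *Chil3* has the motif of other STAT factors from base -172, found in 8.47% of promoters. It also matches TATAAA, but from base -3, at the annotated start itself. No motif was matched in the *Mgl2* and *Il4ra* windows. A match describes letters only.

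The labelled cell type was checked with marker lists. Their counts stand beside 16.7% of all tested genes past the threshold on the higher side and 34.6% on the lower side. All 9 macrophage markers were tested and their summed level was 5818 to 5889 FPKM in control and 5472 to 5555 FPKM in CITED2-deficient libraries, with 1 higher and 5 lower past the threshold, or 3 higher and 5 lower after median-ratio scaling. Of 6 monocyte markers, 5 were higher and 1 lower, with a summed level of 44.2 to 49.7 FPKM against 142 to 158 FPKM. All 6 tested of 8 fibroblast or stromal markers were higher, with 42.4 to 50.6 FPKM against 170 to 540 FPKM, and CITED2-deficient replicate 1 held the highest value. Without that library the log2 differences were -1.72 for *Mrc1*, -2.89 for *Clec10a*, -1.67 for *Mgl2* and -0.386 for *Il4ra*, close to those with it. Leaving it out keeps the difference in stromal markers, since the lowest CITED2-deficient sum was 170 FPKM. The values without it therefore do not bear on the part of stromal cells.

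Neutrophil markers overlapped in sum (746 to 815 against 672 to 790 FPKM), with 3 higher and 6 lower of 11 tested. More abundant genes carry most of this sum, which hides falls of *Mpo*, *Elane* and *Prtn3*. Their log2 differences were -2.54, -2.08 and -2.12, while the largest of the 3 rises was 1.74 for *Retnlg*. The other rises were of *Ltf*, from 94.3 to 177 FPKM, and *Mmp8*, from 2.45 to 4.64 FPKM. *S100a8*, *Ngp* and *Camp* were the other markers called lower. The summed eosinophil markers were 10.97 to 13.1 FPKM in control and 3.56 to 5.41 FPKM in CITED2-deficient libraries, with *Epx* at 0 in the latter, and both tested markers of 6 were lower. Basophil or mast cell markers had 4.09 to 4.75 against 1.58 to 1.86 FPKM, and the only 1 tested, *Kit*, did not pass the threshold. Without *Kit* the sum was 2.75 to 3.41 FPKM in control and 0.560 to 0.755 FPKM in CITED2-deficient libraries. *Prss34*, below the filter, had 1.52, 1.33 and 1.30 FPKM in the control and 0, 0 and 0.0315 FPKM in the CITED2-deficient libraries. Dendritic cell markers, a cell type known to express *Mgl2*, had a sum of 5.12 to 6.86 against 3.73 to 3.87 FPKM, which was lower through *Kmo* alone, the only one of them tested. Without *Kmo* the sum was 0.771 to 1.16 FPKM in control and 2.18 to 2.29 FPKM in CITED2-deficient libraries, with *Clec9a*, *Ccr7* and *Xcr1* each higher in every CITED2-deficient library and *Flt3* and *Xcr1* at or near 0 throughout. T or innate lymphoid markers had 135 to 146 against 233 to 249 FPKM, mostly *Il7r*, with *Cd3e*, *Cd3g* and *Cd8a* near 0, and 17.6 to 18.9 against 14.6 to 15.7 FPKM without *Il7r*. The macrophage sum also turned without its highest gene, *Adgre1*, to 3611 to 3673 FPKM in control and 3725 to 3744 FPKM in CITED2-deficient libraries. That sum holds *Fcgr1*, the 1 macrophage marker called higher, with means of 172 FPKM in control and 482 FPKM in CITED2-deficient BMDMs. *Csf1r*, *Mertk*, *Itgam* and *Lyz2* were called lower, as was *Adgre1*. The part of these cell types in the levels of the 7 genes and of the other named genes was not tested.

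**Figure D5:**
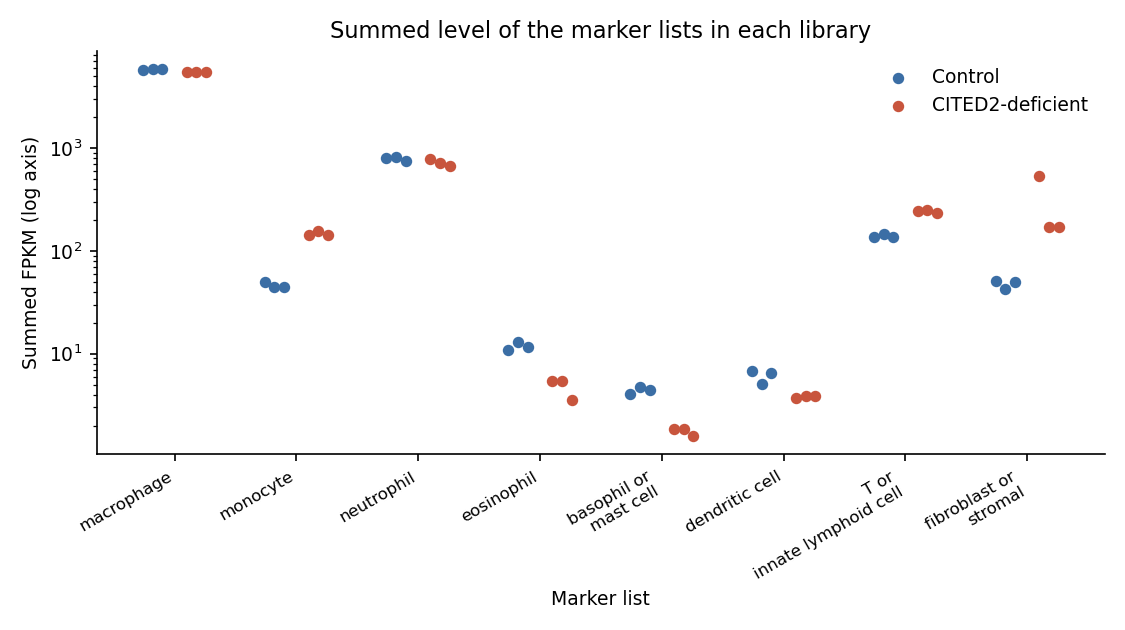
Summed FPKM (log axis) of the genes of each marker list in each of the 3 control (blue) and 3 CITED2-deficient (red) libraries. Monocyte and fibroblast lists are higher in the CITED2-deficient libraries, eosinophil and basophil lists lower, and the macrophage list is the highest in every library. The dendritic cell, T or innate lymphoid and macrophage sums change direction when the highest gene of each (Kmo, Il7r and Adgre1) is left out.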

How the data were processed

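Stranded libraries were made after depletion of ribosomal RNA. The authors used STAR for alignment to mm10. The deposited FPKM, 1 per gene and library, are the output of Cuffdiff on GENCODE genes. The sources used here give neither tool versions nor the GENCODE release. FPKM divide by transcript length and library size, so strong changes in some genes shift the others, and fragments of near-identical genes may be split. With the mean transcript lengths of GENCODE M21, the FPKM of 96.1% of 22220 matched genes came out as whole fragments (tolerance 0.02) in each of the 6 libraries. Between replicates the mean chi-square over genes was 2.17 to 5.49, more than sampling noise, and none was treated as a duplicate.

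Values were transformed to log2(FPKM + 1), and limma 3.58.1 (R 4.3.3) was fitted with a variance trend to genes that averaged 1 FPKM or more. The threshold was a Benjamini-Hochberg adjusted p of 0.05. The fit was tested on simulated data. Alternatives were other pseudocounts, filters, scalings and weights, a replicate block and each library left out. Limma-voom on the recovered fragments, levels per longest coding transcript and marker sums without the highest gene were added after the data were seen.

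The 7 genes, the lists and the rules were chosen with earlier results of these data known. Named genes are the 7, *Cited2*, *Lyz2*, the 4 largest differences past the threshold without overlap in each list (and any call of a list with under 3), the tested gene on either side of each of the 7 and the 2 nearest in pattern. Other genes were named after their values were seen.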

Additional observations from a re-analysis of the deposited data

How the results depend on the processing

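The log2 differences of the 5 tested genes were below 0 under every alternative. Relative to the spread between libraries, some moved. With median-ratio scaling they were -1.66 for *Mrc1*, -2.81 for *Clec10a* and -0.295 for *Il4ra*. For *Mgl2* the log2 difference was -2.97 with a pseudocount of 0.1, -2.13 with 0.5 and -3.31 with limma-voom on the recovered fragments, since the pseudocount weighs most on low levels. *Chil3* did not pass the threshold with median-ratio scaling, without the variance trend, without a filter, or without control replicate 1, control replicate 2 or CITED2-deficient replicate 3. The count of lectin relatives past the threshold ranged from 3 to 5 with each library left out, and that of chitinase-like and resistin-like relatives was 0 with a filter at a mean FPKM of 5, where neither called gene is tested. *Nsun6* turned to 0.0405 with median-ratio scaling, 0.0248 with quantile normalization and ranged from -0.0936 to 0.032 with each library left out, above 0 without control replicate 1. The cause was not tested.

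Over all genes, 5226 to 5467 passed the threshold with each library left out, 5204 with median-ratio scaling and 5390 with quantile normalization. Same-numbered libraries had correlations of 0.014, 0.008 and 0.04 of their deviations from the group means, and different-numbered libraries -0.052 to 0.035. With 3 libraries per group these values cannot decide whether the replicate numbers pair the libraries. The replicate block gave 5708 genes past the threshold in place of 5994, and all 5 tested genes stayed past it. *Retnla* and *Arg1* are limited by depth, with 2 and 96 fragments in all.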
